A study of Rattus norvegicus with 43 samples.

Results

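Mammary glands of rats given Targretin were compared with those of rats on diet only. The comparison uses 7 of the 43 arrays of the study, chosen by their titles: Targretin mammary gland 1 to 3 and diet mammary gland 1 to 4. Every probe set that is not a control was examined, and transcripts typical of liver were told apart from the rest. All rats were female Sprague-Dawley, an outbred laboratory strain, and treatment began at 100 days of age and lasted 7 days. Targretin (bexarotene) went in by gavage, 60 mg per kg body weight. The diet group received diet only, and no group given gavage without the drug is named, so the gavage and the drug cannot be told apart. Mammary glands of rats fed 9-cis retinoic acid (9cRA, 100 mg per kg diet, 4 arrays) or 4-hydroxyphenylretinamide (4HPR, 782 mg per kg diet, 3 arrays), and the livers and lungs of the study, served as points of reference. RNA was hybridised to Affymetrix rat arrays, and values are probe set signals in arbitrary units. Whether each array had an animal of its own is not in the labels, so p-values measure only the spread between arrays, and the number of arrays limits the precision.

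Targretin activates the retinoid X receptors, nuclear receptors that bind DNA mostly as partners of others, among them the receptors for retinoic acid, fatty acids (PPARs), oxysterols (LXRs), thyroid hormone and vitamin D. Ligands of these receptors can thereby alter lipid, retinoid and drug metabolism, and they have been studied as agents against mammary cancer. The rat mammary gland is an epithelial tree set in a fat pad, so its RNA comes from adipocytes, luminal and myoepithelial cells, fibroblasts, vessels and immune cells.

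The arrays carried the transcripts of a mammary gland in both groups. Csn1s1, the alpha-casein of milk, had a signal of 65208, 79412 and 67825 with Targretin and 55001 to 78482 on diet, against a mean of 125 in diet liver. Cfd (adipsin), an adipocyte protease, had 60353 to 102304 with Targretin and 83169 to 113790.0 on diet. Both ranges overlapped. The groups differed in many liver transcripts, which the diet arrays carried and the Targretin arrays largely lacked. They also differed in other probe sets, counted next.

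A liver transcript was defined without the arrays compared, as a probe set whose mean in diet liver was at least 1000 and at least 4 times its median over the 9cRA and 4HPR mammary arrays. Of 6059 probe sets tested, limma called 796 (13.1%) at an adjusted p under 0.05, 482 higher with Targretin (7.96%) and 314 lower (5.18%). At an unadjusted p under 0.05 there were 1833. Of 427 liver transcripts tested, 139 fell (32.6%) and 39 rose (9.13%), with a median log2 difference of -0.49. Of the other 5632 probe sets, 175 fell (3.11%) and 443 rose (7.87%), with a median of 0.13. Liver transcripts thus made up 44.3% of the calls lower with Targretin. The count of 796 was 516, 338 and 410 without Targretin array 1, 2 and 3, and 375 and 368 without diet array 2 and 3. Outside the liver transcripts the count of 618 was 372, 210, 278, 239 and 227 without these. With 1 probe set per gene, 226 of 3629 genes rose (6.23%) and 205 fell (5.65%), around a median of 0.07.

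Plasma proteins made by hepatocytes were among the genes that fell. Ttr (transthyretin), which carries thyroxine and the retinol-binding protein in blood, had signals of 45.2, 182.8 and 23.7 with Targretin and 13053, 15078, 15054 and 11260 on diet, and it fell by 7.02 ± 0.45 on the log2 scale (SE, adjusted p = 1.3e-07). Log2 differences throughout are of the signal plus 38.1. Ahsg (fetuin-A), an inhibitor of calcification, had 159.0, 12.7 and 106.6 against 12725, 11766, 12256 and 10453, and it fell by 6.71 ± 0.52 (adjusted p = 6.8e-07). Every diet array stood above every Targretin array. Targretin signals this low make the size depend on the value added: with one 4 times larger, Ttr fell by 5.91, Ahsg fell by 5.65, and the sizes below shrink likewise.

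Other secreted proteins behaved alike. Ambp, the precursor of alpha-1-microglobulin and bikunin, had signals of 46.9, 66.8 and 54.7 with Targretin against 4925, 2842, 3172 and 3627 on diet and fell by 5.26 ± 0.39. Apoh, a phospholipid-binding plasma protein, fell by 4.91 ± 0.42, and Serpina1, which inhibits neutrophil elastase, fell by 4.73 ± 0.42, from 11601 ± 1343 (SD, n = 4) to 414 ± 132 (n = 3). The fibrinogen chain Fga fell by 4.42 ± 0.45 and the chain Fgb fell by 3.84 ± 0.46. Alb (albumin) was still well above the value added on the Targretin arrays, at 3203, 4322 and 800.7 against 33138, 16367, 17368 and 22371, and fell by 3.23 ± 0.55 (adjusted p = 0.0019). Alb did not meet the definition of a liver transcript, because its signal in 9cRA and 4HPR mammary gland was too close to that in liver.

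The promoters of 3 of these genes are shown because the bases before their start hold a near match to the motif of HNF1, a transcription factor of hepatocytes. They are taken from RefSeq (GRCr8), 150 bases up to the start of the gene, with the match in capitals. The motif searched was the half-site GTTAAT, any 1 base N, and the half-site reversed (ATTAAC), on both strands, with up to 2 mismatches, in the 250 bases before each start.

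Alb, chr14:17906980-17907129, minus strand: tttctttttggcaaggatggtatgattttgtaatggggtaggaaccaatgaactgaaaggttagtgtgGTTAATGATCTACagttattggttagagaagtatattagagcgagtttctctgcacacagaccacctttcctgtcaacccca

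Fga, chr2:170672019-170672168, plus strand: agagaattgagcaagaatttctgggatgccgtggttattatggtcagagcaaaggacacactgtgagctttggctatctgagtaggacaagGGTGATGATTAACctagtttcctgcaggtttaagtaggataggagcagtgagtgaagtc

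Fgb, chr2:170700876-170701025, minus strand: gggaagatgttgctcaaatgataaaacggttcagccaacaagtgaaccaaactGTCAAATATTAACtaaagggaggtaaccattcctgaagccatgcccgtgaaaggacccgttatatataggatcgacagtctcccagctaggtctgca

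The match began 82 bases before the start in Alb, 59 in Fga and 97 in Fgb, each with 2 mismatches. Such a match was present in 307 of 27457 promoters in the table (1.12%), in 38 of 2979 promoters of genes tested in mammary gland (1.28%), and in 6 of 57 promoters of the liver-restricted genes described next (10.5%). The 6 are Apom, F2, Fga, Gc, Lipc and Serpina4, so Alb and Fgb are not among them. It is a description of letters: the 3 promoters, the motif and its mismatches were chosen after the values were seen and after other motifs had been searched.

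Enzymes of hepatocytes fell with the plasma proteins. Fabp1, the liver fatty acid binding protein, had signals of 11.3, 22.3 and 19.3 with Targretin and 5408, 3432, 3548 and 4076 on diet (-6.20 ± 0.44). All 3 Targretin signals lay below the value added, and with the larger one Fabp1 fell by 4.63 and Cyp2c12 fell by 4.75. Sult2a1, which sulphates bile acids and steroids, fell by 6.24 ± 0.38 and Cyp2c12, a P450 of female rat liver, by 6.28 ± 0.39. Cps1, the first enzyme of the urea cycle, fell by 4.53 ± 0.42, Pon1, a lactonase of plasma lipoproteins, fell by 4.18 ± 0.31, Fbp1 of gluconeogenesis fell by 3.67 ± 0.44 and Cyp2c23, an epoxygenase, fell by 3.83 ± 0.43. All 7 had an adjusted p of at most 7.5e-05. The adjusted p stayed below 0.001 for each whichever single array was left out.

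**Figure D1:**
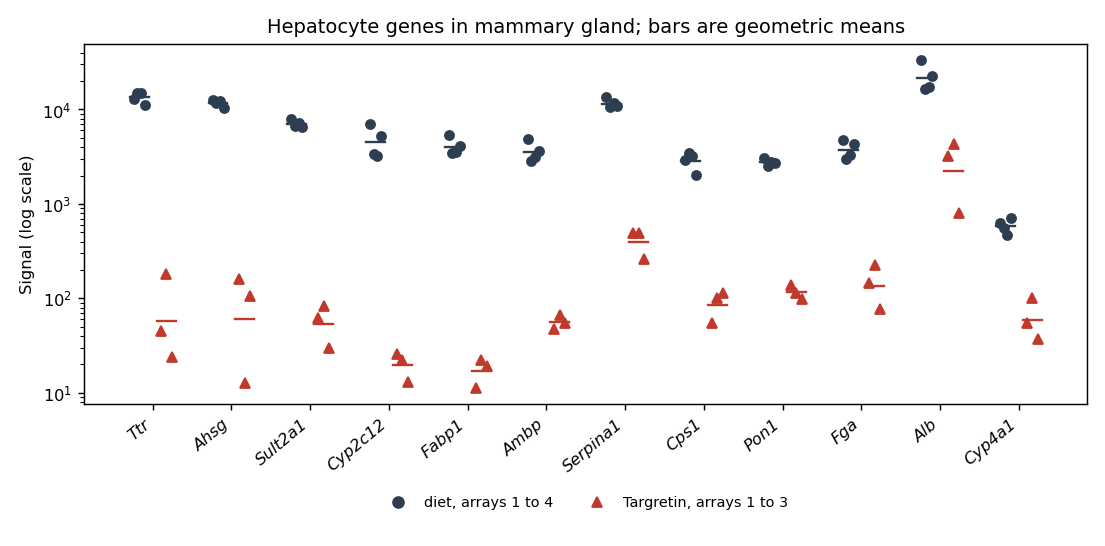
Signal (log scale) of 12 hepatocyte genes on each mammary array, diet (circles) and Targretin (triangles), with bars at geometric means. In every gene shown all 4 diet arrays lie above all 3 Targretin arrays.

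Of 26 hepatocyte markers tested, 25 fell, 0 rose and 1 did not pass, with a median of -3.0 against 0.07 over all genes. The one that did not pass was Arg1 (arginase), at 1041, 718 and 1687 against 1798, 1762, 1758 and 1922 (-0.72 ± 0.24, adjusted p = 0.060). The summed signal of the markers was 27469 to 55792 with Targretin and 158694 to 224564 on diet. Of 19 acute phase genes 13 fell and 0 rose (median -2.04). Of the 19, 13 were liver transcripts, and among the other 6, 1 fell (median -0.12). Of 30 drug metabolism genes 16 fell and 2 rose (median -1.01), where 5.65% of all genes fell and 6.23% rose. Of the 30, 15 were liver transcripts, and among the other 15, 6 fell and 1 rose (median -0.68).

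A stricter set of 102 liver-restricted probe sets put the level on a common scale. Each had a mean of at least 8000 in diet liver and at least 20 times both its median in diet lung and its median in 9cRA and 4HPR mammary gland. Their summed signal, as a share of the diet liver mean, was 0.850%, 0.741% and 0.693% on the Targretin mammary arrays. It was 4.58%, 3.04%, 2.88% and 3.58% on the diet arrays. The log2 difference was -2.19, a level 4.56-fold lower, and every Targretin array lay below every diet array (exact two-sided permutation p = 0.0571, the smallest that 3 against 4 arrays can give).

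The other groups show where the Targretin arrays stood. The share was 1.87% to 5.30% with 9cRA and 2.30% to 5.47% with 4HPR in mammary gland, so the 3 Targretin arrays were the lowest of all 14. In lung it was 1.21% to 1.48% with Targretin. On diet lung arrays 2, 3 and 4 it was 3.12%, 0.976% and 0.972%. With 4HPR it was 10.4% on lung array 3 and 2.25% to 3.08% on the other lung arrays, so single lung arrays also carried more liver transcripts. How these came to be there was not tested. In Targretin liver it was 79.6% to 92.0%. The rule used the 9cRA, 4HPR, diet lung and diet liver arrays, and neither group of the mammary comparison.

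**Figure D2:**
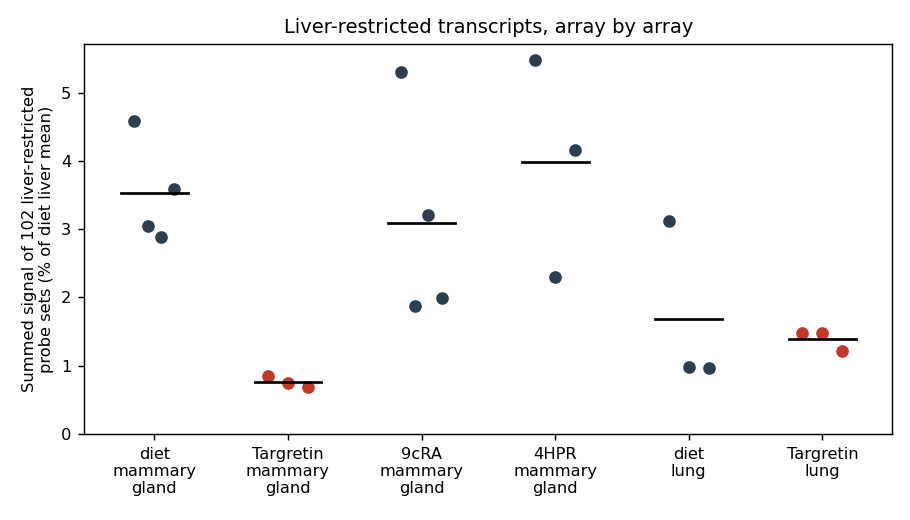
Summed signal of the 102 liver-restricted probe sets as a percentage of the diet liver mean, 1 point per array, with bars at group means. The 3 Targretin mammary arrays lie between 0.693% and 0.850%, and the lowest diet mammary array lies at 2.88%.

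Of these probe sets 94 were tested, 61 fell and 0 rose, and in 69 the Targretin arrays all lay below the diet arrays, where 9.99% of all probe sets did so and 17.2% lay the other way. On the diet mammary arrays a probe set's log2 level followed its level in diet liver across the 102 (r = 0.70), as it did with 9cRA (0.69) and 4HPR (0.73). With Targretin r was 0.088. These are descriptions across probe sets of the same arrays, which are not independent. The median probe set stood at 2.70% to 4.32% of its liver level on the diet arrays and at 0.558% to 0.605% with Targretin. An example without a difference was Gnmt, a methyltransferase of liver, at 524, 415 and 537 with Targretin against 748, 338, 258 and 497 on diet (0.18 ± 0.31, adjusted p = 0.74).

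**Figure D3:**
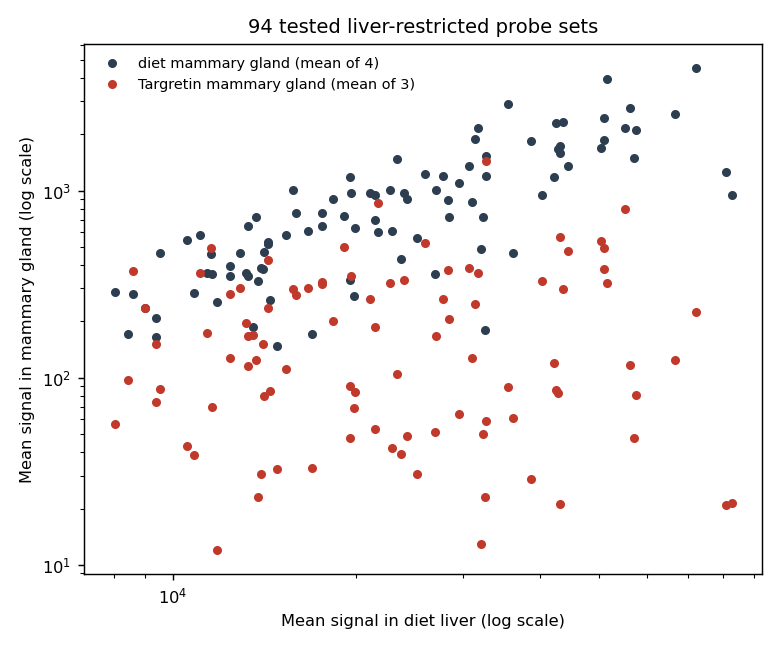
Mean signal in mammary gland against mean signal in diet liver (both log scale) for the 94 tested liver-restricted probe sets, diet in dark and Targretin in red. The diet points rise with the liver level, while the Targretin points scatter mostly below them.

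In bulk tissue, fewer cells of a type and less RNA per cell cannot be told apart, and liver RNA in the gland's samples can also not be told from hepatocyte genes expressed by the gland itself. How liver transcripts came to be on the diet, 9cRA and 4HPR mammary arrays was not tested.

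The change in mammary gland was compared with that in liver, with the difference of the changes tested in a fit of all 43 arrays. Of 5437 probe sets tested in both organs, 420 had a more positive change in mammary gland than in liver (7.72%) and 285 a more negative one (5.24%). Acot1, a cytosolic acyl-CoA thioesterase, differed by 8.46 in liver, whereas in mammary gland it had signals of 137, 352 and 413 with Targretin against 1884, 418, 272 and 1401 on diet (-1.34 ± 0.53, adjusted p = 0.10). The difference between organs was -9.80 (adjusted p = 3.6e-09). Acaa1b, a peroxisomal thiolase, differed by 4.39 in liver and by -1.51 in mammary gland, a difference of -5.90 (adjusted p = 1.3e-07). In both genes diet arrays 1 and 4 were the high ones, and diet array 3 lay within or below the Targretin range.

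P450 genes differed in the same way. Cyp2b2, induced by phenobarbital in liver, differed by 3.93 there and fell by 1.89 ± 0.35 in mammary gland, at 254, 495 and 687 against 2386, 1524, 1213 and 2121 (difference -5.82, adjusted p = 1.3e-07). Cyp2b2 was no liver transcript, since its mean of 2035 in diet liver was near that with 9cRA and 4HPR in mammary gland (1049 and 1863). In diet lung it was 38044. Cyp4a1, a fatty acid omega-hydroxylase, differed by 1.65 in liver and fell by 2.65 ± 0.43 in the gland (difference -4.30, adjusted p = 3.2e-04). Cyp2c22, which hydroxylates retinoic acid, differed by 2.48 in liver and fell by 2.85 ± 0.70 in the gland (difference -5.33, adjusted p = 1.1e-04). Its diet signals of 5222, 817, 447 and 3213 again split arrays 1 and 4 from 2 and 3, and its fall did not pass without Targretin array 2 (adjusted p = 0.080).

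Outside the liver transcripts, the fall with the smallest adjusted p among the genes described was that of Ghr, the growth hormone receptor. Its signal was 8173, 4598 and 4841 with Targretin and 21889, 26792, 28031 and 19138 on diet, so no Targretin array reached the lowest diet array (-2.06 ± 0.28, adjusted p = 2.9e-04). Ghr differed by -1.11 in liver and -1.54 in lung, and its change did not pass the test of a difference from either organ (adjusted p = 0.18 and 0.60). Ghr was the one of 14 members of the insulin-like growth factor axis that fell, and 0 rose. It was also lower with Targretin than with 9cRA (-1.53, adjusted p = 0.0062) and 4HPR (-1.72, adjusted p = 0.0034).

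S100b, Ldhb and Cat each fell by about a log2 unit. S100b, a calcium-binding protein of adipocytes and Schwann cells, had 8771, 8404 and 7802 against 25373, 16663, 22618 and 17252 (-1.27 ± 0.27, adjusted p = 0.0075). Ldhb, the heart-type subunit of lactate dehydrogenase, fell by 1.20 ± 0.19 (adjusted p = 0.0013), and Cat (catalase) by 1.09 ± 0.21 (adjusted p = 0.0042). In the Schwann cell and nerve list, which holds S100b, 1 of 6 fell and 0 rose (median -0.18). The fibroblast list had 12 members, all with a negative difference, of which Vim (vimentin) at -0.91 ± 0.21 and the matrix protein Sparc at -1.28 ± 0.33 fell and 0 rose. Col1a1, a chain of type I collagen, stood at -0.49 ± 0.26 (adjusted p = 0.22). The summed fibroblast signal was 282991 to 306286 with Targretin and 392974 to 437283 on diet, without overlap, and the part of cell makeup in these falls was not tested.

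Other genes below the diet level included regulators. Klf9, a zinc finger factor, fell by 1.09 ± 0.24, Gpc3, a cell-surface proteoglycan, by 2.22 ± 0.46, Il18, a cytokine, by 1.93 ± 0.44, and Tlr4, the endotoxin receptor, by 2.39 ± 0.63, from low signals of 252 to 527 on diet to 25.8 to 40.6. In the matrix list of 23 genes, Lox, which crosslinks collagen, fell by 0.95 ± 0.25 and Bgn (biglycan) rose by 0.80 ± 0.22, with 2 lower and 2 higher in all. The list of heat shock and unfolded protein response had 20 genes, with 2 lower and 2 higher. The cytosolic chaperones Hsph1 and Dnaja1 fell by 0.93 ± 0.24 and 1.23 ± 0.29, with diet arrays 2 and 3 the highest in both.

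Of 31 genes of fatty acid oxidation and PPAR targets, 6 fell and 1 rose (median 0.26 against 0.07 over all genes), where 5.65% of all genes fell and 6.23% rose. Of the 31, 3 were liver transcripts, and among the other 28, 5 fell and 0 rose (median 0.28). Beside Cyp4a1 and Cat, Eci1, a mitochondrial enoyl-CoA isomerase, fell by 0.79 ± 0.22 where it differed by 1.31 in liver (difference -2.10, adjusted p = 2.5e-05). Hsd17b4, the peroxisomal bifunctional enzyme, fell by 0.76 ± 0.17. Of 24 oxidative phosphorylation genes 4 fell and 1 rose (median -0.14), beside the same 5.65% and 6.23% over all genes. Among those that fell was Cox4i1, a subunit of cytochrome oxidase, by 0.61 ± 0.18.

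Single lipid synthesis genes stood higher. The list of lipogenesis and LXR targets had 14 genes, with 2 higher and 0 lower (median 0.32), where 6.23% of all genes rose. Of the 14 differences 9 were positive and 5 negative. The summed signal overlapped, at 268217 to 350071 with Targretin and 299060 to 364188 on diet. Srebf1, the factor that drives fatty acid synthesis, had 2059, 2020 and 1632 with Targretin against 996, 467, 220 and 579 on diet (1.85 ± 0.58, adjusted p = 0.050, just under the threshold). Acaca (acetyl-CoA carboxylase) rose by 1.98 ± 0.51 (adjusted p = 0.023). Fasn, the fatty acid synthase, had 38044, 26271 and 29021 against 25513, 7590, 6910 and 17006, without overlap, but did not pass (1.32 ± 0.49, adjusted p = 0.087). Mvd of cholesterol synthesis rose by 1.08 ± 0.30, and Scarb1, the receptor for high density lipoprotein, by 2.43 ± 0.47 (2268, 1941 and 2454 against 530, 266, 454 and 321).

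In the retinoid handling list 1 of 14 genes rose and 2 fell. Crabp2, which carries retinoic acid to its receptor, had 1829, 2062 and 6287 against 834, 610, 753 and 1300 and rose by 1.73 ± 0.46 (adjusted p = 0.024). Rbp4, the retinol carrier of plasma, fell by 0.83 ± 0.20, and Ttr, its partner, is given above. Cyp26b1, which degrades retinoic acid, had 495, 1108 and 521 against 562, 59.4, 34.9 and 569, with diet arrays 1 and 4 within the Targretin range (1.63 ± 0.73, adjusted p = 0.15). Crabp1 (1.09 ± 0.35, adjusted p = 0.051), Rara (0.80 ± 0.29, adjusted p = 0.078) and Aldh1a1, a retinaldehyde dehydrogenase (-0.61 ± 0.21, adjusted p = 0.062), did not pass. The receptors Targretin binds did not pass either, at 0.83 ± 0.47 for Rxra, -0.39 ± 0.28 for Rxrb and 0.10 ± 0.28 for Rxrg (adjusted p = 0.25, 0.36 and 0.85).

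Of 19 mammary epithelium markers 18 had a positive difference, 2 rose and 0 fell (median 0.62). Over all genes 6.23% rose, around a median of 0.07, and the share of positive differences was not counted. Erbb3, a receptor of neuregulins, had 803, 822 and 781 against 245, 352, 241 and 328 (1.37 ± 0.24, adjusted p = 0.0030), and Muc1, a mucin of luminal cells, rose by 1.03 ± 0.22 (adjusted p = 0.0097). Neither signal is particular to the gland. Erbb3 had a mean of 1044 in diet liver against 292 in diet mammary gland, and Muc1 had 8370 in diet lung against 1008. Krt8, a luminal keratin, stood at 0.96 ± 0.33 (adjusted p = 0.063). The milk protein genes varied from array to array, as in Wap (whey acidic protein) at 13379, 6333 and 41870.2 against 1428, 13652, 11922 and 8151, and Csn2 (beta-casein) at 0.73 ± 1.22 (adjusted p = 0.73).

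Of 14 adipocyte markers 1 rose and 0 fell (median 0.29). The one was Car3 (carbonic anhydrase 3), at 33894, 37005 and 28716 against 26334, 10868, 10451 and 14693 (1.19 ± 0.35, adjusted p = 0.040). With 9cRA the mean of Car3 was 34356, and Targretin against 9cRA did not pass (0.06, adjusted p = 0.97). Lpl (-0.45 ± 0.18), Fabp4 (-0.55 ± 0.26), Pparg (-0.51 ± 0.28) and Cd36 (1.05 ± 0.42), which serve fat storage and uptake, did not pass (adjusted p = 0.11, 0.17, 0.23 and 0.11). Lep (leptin) did not pass either (0.57 ± 0.19, adjusted p = 0.057), and its probe set gave 4669 in diet liver, near the 4445 of diet mammary gland. Of 14 skeletal muscle markers 0 passed, and their summed signal reached 82755 on Targretin array 3 against at most 6157 on diet. Tnnt3, a fast troponin, had 10541 on that array and 561 to 637 on the other Targretin arrays.

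Other genes rose singly. Aldoc (aldolase C) had 1659, 2055 and 4642 against 215, 211, 129 and 455 (3.25 ± 0.65, adjusted p = 0.0060), and it was also higher than with 9cRA (2.81, adjusted p = 0.031). In the glucose use list of 21 genes 3 rose and 4 fell (median 0.12), where 6.23% of all genes rose and 5.65% fell. Of the 21, 2 were liver transcripts, and among the other 19, 3 rose and 2 fell (median 0.24). Among the rises were Aldoa, up by 2.03 ± 0.51, and Pfkl (phosphofructokinase), up by 1.72 ± 0.42. Tkt, a pentose phosphate enzyme outside the list, rose by 2.40 ± 0.54. P4hb, a disulphide isomerase of the endoplasmic reticulum, had 14634, 12053 and 15448 against 4804, 3566, 2906 and 6056 (1.74 ± 0.31, adjusted p = 0.0031).

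In the immediate early list 2 of 18 genes rose and 1 fell, with 9 positive and 9 negative differences. Some rises differed between probe sets of a gene. Calr (calreticulin) rose on both, by 3.18 ± 0.54 and 1.04 ± 0.28. The first of these met the definition of a liver transcript, with a mean of 5143 in diet liver. Fos rose on one by 2.42 ± 0.45 (320, 1068 and 921 against 152, 129, 65.9 and 64.0), while its brighter probe set stood at 0.65 ± 0.24 (adjusted p = 0.085). Junb rose on one by 2.49 ± 0.54 and stood at 0.81 ± 0.27 on the other (adjusted p = 0.056). Ier3, another early gene, rose by 1.10 ± 0.29 where it differed by -1.07 in liver (difference 2.17, adjusted p = 3.2e-05). Of 342 genes outside the liver transcripts with a rise, 193 had a further tested probe set, in 28 of these every probe set passed, and in 60 at least 1 had the opposite sign. Of 144 genes outside the liver transcripts with a fall, 80 had a further one, in 2 every probe set passed and in 36 at least 1 was opposite. Of 85 genes with a fall among the liver transcripts, 33 had a further one, in 18 every probe set passed and in 5 at least 1 was opposite.

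H19, an imprinted non-coding RNA, rose by 3.41 ± 0.91, with 4042 and 3261 on Targretin arrays 1 and 3 but 169 on array 2, beside 46.1 to 165 on diet. With Targretin array 1 or array 3 left out, H19 fell below the filter on low signals and was not tested. Kit and Tpsb2, a receptor and a tryptase in the mast cell list, rose by 1.86 ± 0.39 and 0.90 ± 0.22. They were 2 of 7 markers, with 0 lower, and 4 of the 7 differences were positive and 3 negative. The summed signal of the list overlapped, at 10359 to 18123 with Targretin and 11304 to 14546 on diet. The Tpsb2 probe set gave 1215 in diet liver and 1778 in diet lung, near the 1221 of diet mammary gland or above it. Of 38 ribosomal protein genes 5 rose and 0 fell (median -0.03), and Rpl6 rose by 1.51 ± 0.33. Psap (prosaposin), a lysosomal activator of sphingolipid breakdown, rose by 2.46 ± 0.51.

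**Figure D4:**
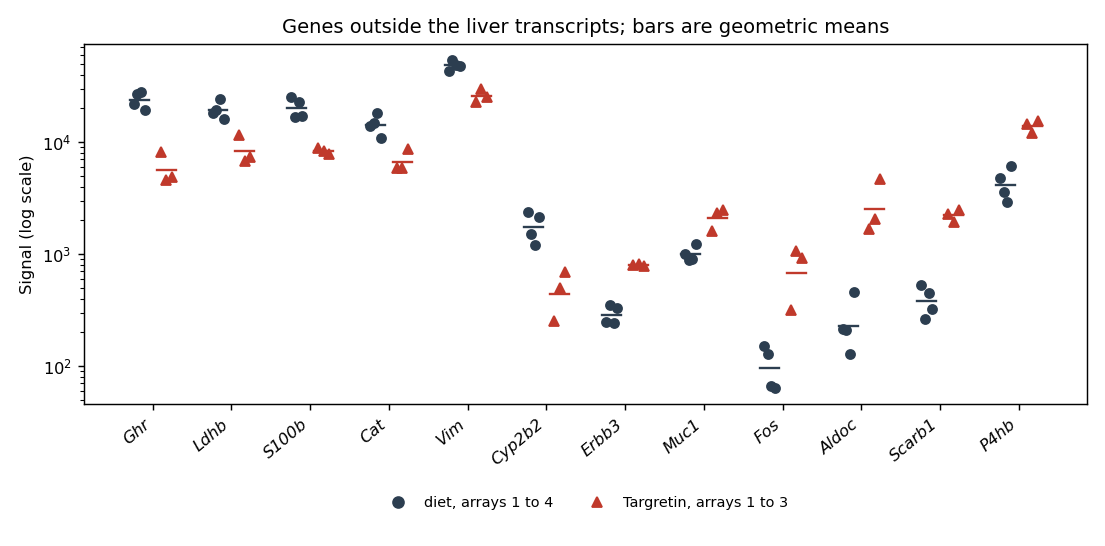
Signal (log scale) of 12 genes outside the liver transcripts on each mammary array, diet (circles) and Targretin (triangles), with bars at geometric means; Fos is its dimmer probe set. Ghr, Ldhb, S100b, Cat, Vim and Cyp2b2 lie lower with Targretin and the others higher, without overlap in any of the 12.

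The arrays carry 2 controls for RNA quality, and they ran in opposite directions. The ratio of the 3' to the 5' probe set of beta-actin, which rises as RNA is shortened, was 3.45, 2.86 and 3.69 with Targretin and 3.71, 6.21, 4.61 and 4.56 on diet (exact two-sided permutation p = 0.0571). The same ratio for GAPDH was 4.12, 3.13 and 2.82 with Targretin and 2.73, 2.48, 3.20 and 2.80 on diet, higher on average with Targretin and with overlap (exact two-sided permutation p = 0.229). By the actin ratio the diet arrays, and by the GAPDH ratio the Targretin arrays, had the higher values on average. The signal of the actin 3' probe set was 36098 to 39714 with Targretin and 9685 to 23897 on diet, lowest on diet arrays 2 and 3. With the log2 actin ratio as a covariate, 122 of the 139 liver transcripts that fell still passed, and 41 of 175 falls and 69 of 443 rises among the other probe sets did. With the log2 GAPDH ratio in its place the numbers were 112, 95 and 263, and without diet arrays 2 and 3 they were 104, 15 and 38. Some named genes outside the liver transcripts passed with the actin covariate and without diet arrays 2 and 3. These were Ghr, Ldhb, Cyp2b2, Erbb3, Alb, Cyp2c22 and the dimmer Fos probe set. Cyp2c22 did not pass with the GAPDH covariate (adjusted p = 0.056). The first Calr probe set, which met the definition of a liver transcript, also passed in both.

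**Figure D5:**
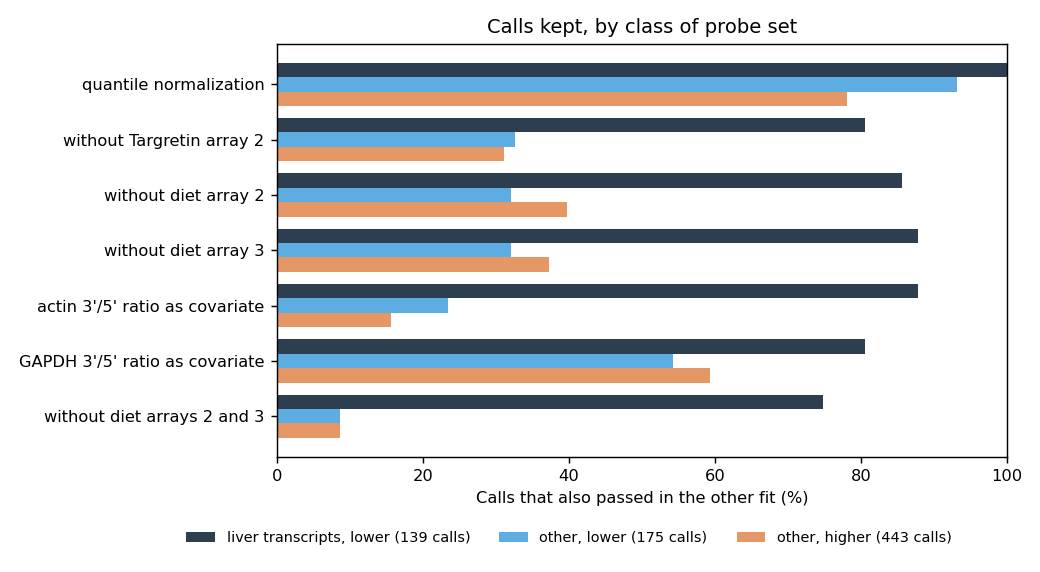
Share of calls (%) that also passed in each of 7 other fits, for 139 liver transcripts lower with Targretin and for 175 falls and 443 rises among the other probe sets. Without diet arrays 2 and 3, 104 of the 139 liver transcripts remain, and 15 and 38 of the others.

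For S100b, Cat, Gpc3, Rbp4, Crabp2, Aldoc, Scarb1, Muc1 and P4hb the call held with the actin covariate and not without diet arrays 2 and 3 (adjusted p from 0.052 to 0.21). Calls of Srebf1, Acaca, Mvd, Car3, Tkt, Aldoa, Pfkl, Vim, Sparc, Bgn, Lox, Klf9, Il18, Tlr4, Eci1, Hsd17b4, Cox4i1, Hsph1, Dnaja1, H19, Kit, Tpsb2, Rpl6, Psap, Ier3, Junb and the second Calr probe set were absent in both fits. Their log2 differences kept their sign: over these 27 probe sets the difference was 53.9% to 108% of its value with the actin covariate (median 81.8%) and 52.2% to 116% without diet arrays 2 and 3 (median 83.1%). Examples are Mvd at 1.06 and 1.11, Tlr4 at -2.52 and -2.06, and Car3 at 0.64 and 0.75. With the GAPDH covariate 16 of the 27 passed, and 47 of all 59 named calls. Of 59 probe sets named with a call, 34 passed whichever single array was left out and 25 did not, with adjusted p up to 0.14. Without Targretin array 1 the calls lost were those of Sparc, Vim, Eci1, Dnaja1, Hsph1, Tlr4, Hsd17b4, Cox4i1, Tkt, Acaca, Srebf1, Car3, Pfkl, Calr, Mvd, Tpsb2 and Bgn, adjusted p at most 0.116. Leaving out Targretin array 2 ended those of Cyp2c22, Sparc, Eci1, Hsph1, Rbp4, Tlr4, Cox4i1, Lox, Acaca, Srebf1, Car3, Ier3, Junb, Mvd, Tpsb2 and Bgn (at most 0.129), and Targretin array 3 those of Eci1, Rbp4, Tlr4, Cox4i1, Lox, Acaca, Srebf1, Crabp2, Car3, Aldoa, Pfkl, Calr, Ier3, Mvd and Bgn (at most 0.107). Diet array 2 or diet array 3 alone ended those of Sparc, Eci1, Hsph1, Tlr4, Cox4i1, Lox, H19, Acaca, Srebf1, Crabp2, Car3, Aldoa, Calr, Ier3, Mvd and Bgn (at most 0.108 and 0.138), array 3 also those of Pfkl and Tpsb2. Diet array 4 ended those of Cox4i1, Srebf1, Car3 and Mvd (at most 0.0672), and diet array 1 that of Cox4i1 (0.0742). Calr is here its second probe set. H19 is missing from the losses without Targretin array 1 or array 3 because it was not tested there. The part of RNA quality in these results was not tested further.

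The other agents' arrays gave direct comparisons, at doses and routes that differ. With 9cRA against diet and 4HPR against diet in mammary gland, limma called 0 probe sets each. At an unadjusted p under 0.05 there were 1130 of 6059 with 9cRA and 180 with 4HPR, beside 1833 with Targretin. The 9cRA and 4HPR arrays were thus not alike in their difference from diet. Those comparisons share the diet arrays with Targretin against diet. Targretin was higher than 9cRA in 9 probe sets (0.149%) and lower in 115 (1.9%), and higher than 4HPR in 93 (1.53%) and lower in 163 (2.69%). The 93 became 39, 23 and 32 without Targretin array 1, 2 and 3 and 21 with the replicate number as a block, while the 163 became 147, 125, 127 and 138. Ttr differed by -5.82 from its level under 9cRA and by -6.78 from that under 4HPR, Sult2a1 by -5.58 and -6.21, and Cyp2c12 by -5.70 and -6.84 (adjusted p at most 1.6e-06). Erbb3 and Muc1 were higher than with 4HPR (1.18 and 1.07, adjusted p = 0.018 and 0.019) and did not pass against 9cRA (0.65 and 0.69, adjusted p = 0.32 and 0.20). S100b was lower than with 9cRA (-1.22, adjusted p = 0.020). Car3, Hsph1, Il18, Tlr4, Vim, Sparc, Psap and Scarb1 did not pass against 9cRA (adjusted p from 0.41 to 0.97).

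Against lung, 213 probe sets of 5498 had a more positive change in mammary gland (3.87%) and 139 a more negative one (2.53%). Liver transcripts varied between the diet lung arrays, as in Ttr at 1332 ± 2132 (SD, n = 3). Serpina1 differed by 0.58 in lung and by -4.73 in the gland (difference -5.30, adjusted p = 1.3e-06), and Pon1 by -0.18 and -4.18 (difference -3.99, adjusted p = 1.5e-04). Scarb1 differed by -0.34 in lung and -0.27 in liver, and its rise in the gland passed the test of a difference from each (2.77 and 2.70, adjusted p = 0.026 and 0.013). P4hb likewise differed by -0.03 and 0.06 (differences 1.77 and 1.68, adjusted p = 0.0012 and 4.2e-04).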

How the data were processed

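Total RNA of mammary gland, liver and lung was measured on Affymetrix rat arrays, 1 array per sample. The authors deposited linear intensity (MAS5 signal, per the submitters' processing notes). The MAS5 version is not given in the sources used here. The 2% trimmed mean lay between 1501.78 and 1503.29 on every array, so arrays were used as scaled. Of 8799 probe sets, 59 controls were left out, and 7006 of the other 8740 had 1 gene symbol, 308 several and 1426 none, from the platform annotation. Median signal was 412 to 436 with Targretin and 351 to 400 on diet. Between these groups arrays correlated at 0.84 to 0.88 (log2), and within them at 0.92 to 0.96.

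Signals became log2 of signal plus 38.1, the 10th percentile. A probe set was tested where 3 or more of 14 mammary arrays had it above their 40th percentile. All mammary groups were fitted with limma 3.58.1 in R 4.3.3 (lmFit, eBayes with trend), and differences between organs in a fit of all 43 arrays. Benjamini-Hochberg adjustment covered all probe sets tested. The summed liver signal was tested by exact permutation. The lists (14 of cell types, 17 of pathways) and the comparison were chosen with earlier results of these data known. Genes named are a part of those eligible by rule: the 15 largest rises and falls among calls, for liver transcripts and the rest apart, up to 5 passing and 3 other members of each list, every member of 3 lists, and the 5 smallest p-values between organs and agents. Which eligible genes to name was decided with their values known.

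Alternatives were quantile normalization, no filter, a larger pseudocount, array weights, the replicate number as a block, only the compared groups, no trend, other liver rules and leaving out arrays. Residuals of same-numbered Targretin and diet arrays correlated at 0.039, -0.0064 and 0.059, so arrays were not paired. The 2 covariate fits, the fit without diet arrays 2 and 3, and the liver rules by lung were chosen after seeing the data. Promoters came from RefSeq (GRCr8) by gene ID; 2979 of 3629 genes matched.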

Additional observations from a re-analysis of the deposited data

Results flagged for a closer look

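In 2 of 89 sets of 4 arrays examined, 1 array stood far from the others, where chance gives about 1 in 20. Diet array 1 stood apart in Calr (first probe set), 637 against 119 to 133, with a gap that was 0.944 of the group's range, and in Csn2, 6772 against 20879 to 23879.6, with a gap of 0.893. The other arrays of those sets lay close together.

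Changes that differed between organs by limma's test of the difference are given as the log2 change in mammary gland minus the change in the other organ. Of 75 named probe sets tested in both mammary gland and liver, 36 differed. The change was more negative in mammary gland for Ttr -6.93, Ahsg -6.56, Sult2a1 -6.18, Cyp2c12 -6.32, Fabp1 -6.43, Ambp -5.14, Apoh -4.52, Fga -4.54, Fgb -3.98, Serpina1 -4.63, Cps1 -4.46, Cyp2c23 -3.83, Cyp2c22 -5.33, Cyp4a1 -4.30, Fbp1 -4.04, Pon1 -3.85, Acot1 -9.80, Acaa1b -5.90, Sparc -2.56, Eci1 -2.10, Klf9 -1.08, Cyp2b2 -5.82, Hsd17b4 -0.88, Fasn -1.72, Aldh1a1 -1.59. It was more positive for Scarb1 2.70, Psap 2.45, Kit 1.89, Muc1 1.16, P4hb 1.68, Calr (second probe set) 1.09, Calr (first probe set) 2.72, Ier3 2.17, Junb 1.67, Rpl6 2.03, Bgn 0.83.

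Of 77 tested in mammary gland and lung, 26 differed. The change was more negative in mammary gland for Ttr -5.21, Ahsg -5.79, Sult2a1 -6.15, Cyp2c12 -5.21, Fabp1 -4.50, Ambp -4.62, Apoh -3.81, Fga -4.20, Fgb -3.24, Serpina1 -5.30, Cps1 -4.42, Cyp2c23 -3.61, Pon1 -3.99, Acot1 -4.10, Sparc -1.67, Klf9 -1.34, Tlr4 -2.18, Gpc3 -2.02. It was more positive for Scarb1 2.77, Psap 1.95, Fasn 1.72, Muc1 1.12, Aldoa 1.99, P4hb 1.77, Calr (first probe set) 2.20, Rpl6 1.52. In Fasn the difference is negative against liver and positive against lung, and Fasn did not pass in mammary gland alone.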

How the results depend on the processing

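The direction of each named gene held under every alternative run that tested it, except in Gnmt, Rxrg, Csn1s1 and Csn2. None of these had a call. Gnmt ran from -0.036 to 0.43 with 1 array left out, negative without diet array 3. It stood at -0.039 with the actin ratio as covariate and -0.30 without diet arrays 2 and 3. Rxrg stood at -0.20 with that covariate and -0.16 with the GAPDH ratio as covariate. With the GAPDH covariate Csn1s1 stood at -0.17 and Csn2 at -0.42. Mat1a and F9, also without a call, were not named because their sign changed between alternatives, so this count of exceptions is of named genes only. Against diet, 796 calls became 1308 with array quality weights, 541 with the GAPDH covariate, 262 with the actin covariate (88 higher, 174 lower), 171 without diet arrays 2 and 3 (44 higher, 127 lower), and 338 to 1056 with 1 array left out. Outside the liver transcripts, 618 became 1093, 404, 127, 61 and 210 to 872. The fit without diet arrays 2 and 3 rests on 2 diet arrays; the cause of the other shifts was not tested. With the replicate number as a block, which does not pair these arrays, there were 611 calls against diet, and 256 against 4HPR became 159. Leaving out 1 Targretin array gave 148 to 186 against 4HPR and 101 to 115 (of 124) against 9cRA; arrays of those agents were not left out. Leaving out any 1 Targretin or diet mammary array gave 551 to 779 (of 705) for the difference from liver and 221 to 431 (of 352) for that from lung. The summed liver signal differed by -2.58 with the 50-fold rule (23 probe sets) and by -2.28 to -2.06 with 1 array left out. With quantile normalization the median difference was 0.01 instead of 0.11, with 777 calls. Signals near the pseudocount understate fold changes.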
